A study of Mus musculus with 12 samples.

Results

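The step from 12 to 24 hours of food withdrawal was compared in mouse liver on 6 of the 12 arrays of the study, 3 for each time point. The arrays were chosen by their titles, and the comparison took in all 20280 probes that are neither control spots nor named as retired. The mice were male, of the FVB strain and 6 weeks old, and no modified allele or agent is named for any group. All were killed between 9 and 10 in the morning, so that food was removed at different clock times in the groups. They had no chow for 12 or for 24 hours, in metabolic cages that were warmed with an infrared lamp from 24 hours on. Each array carried Cy3-labelled RNA pooled from 2 livers and, labelled with Cy5, a common reference pooled from 6 fed livers. The dyes were not exchanged. Every value below is a log2 ratio of sample over reference, so that 0 is the level of the fed reference pool and each step of 1 doubles the ratio. Fed arrays and those of 72 hours entered the fit, where they add to the estimate of the spread.

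During the first hours without food the liver breaks down its glycogen, and it then turns to fatty acids from adipose tissue, which it oxidizes and partly exports as ketone bodies. Amino acids become the main source of new glucose, and their nitrogen leaves as urea. Glucagon, glucocorticoids and the fatty-acid sensor PPARα drive much of this programme, while the fall in insulin removes the drive on lipid synthesis. Liver transcripts also follow the circadian clock, which meal times can shift.

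The 6 arrays did not form 2 groups of 3. Their images had been quantified on 2 days, replicates 1 and 3 of 12 hours with replicates 1 and 2 of 24 hours on the same day, and replicate 2 of 12 hours with replicate 3 of 24 hours on another. Over 17515 probes with a value on all 6 arrays, the log ratios of the first 4 arrays correlated with each other with r between 0.76 and 0.89, and those of the other 2 with each other with r = 0.61. Across these sets r lay between -0.26 and -0.10. The sample channel stood least above its local background on the 2 arrays of the other day, with medians of 4.72 and 3.50 times, against 5.34 to 8.28 on the first 4. Between replicates, the median SD of a probe was 0.41 at 12 hours and 0.31 at 24 hours, whereas the arrays of a group that shared the day differed by a median of 0.11 and 0.17. The 24-minus-12-hour difference was therefore also taken between the 4 arrays of the shared day, called the same-day difference here, and between the other 2 arrays, called the other-day difference, which has no replicate. Over 18074 probes with both, their SD was 0.20 and 0.80, their correlation across probes -0.15, and their sign the same in 43.9%. The plot of both differences shows this spread. The part of the day in the results was not tested apart from these values.

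**Figure D1:**
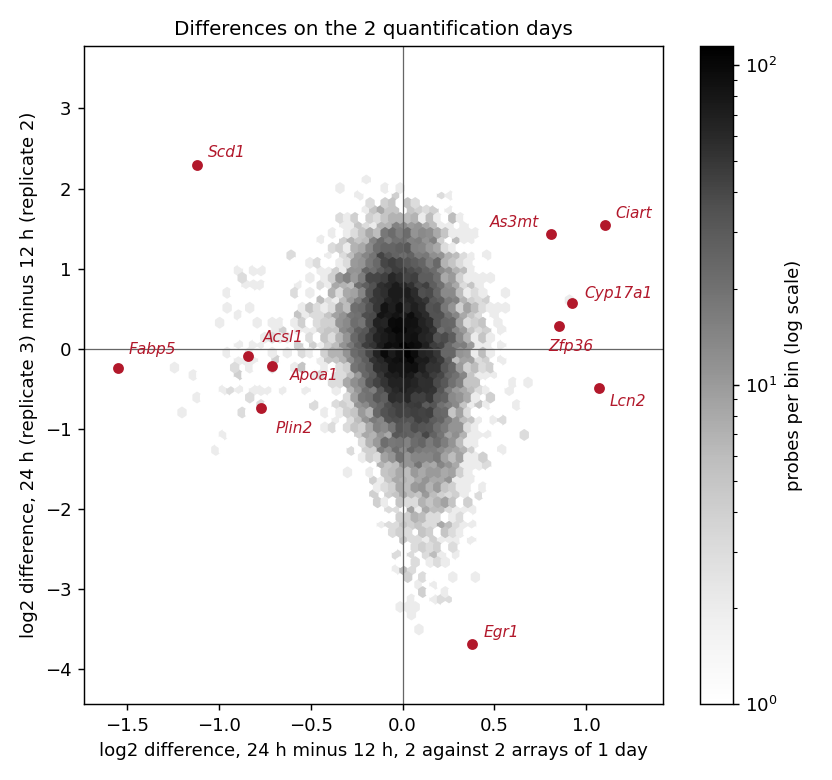
Difference between 24 and 12 hours (log2) for 18074 probes on the 2 quantification days, with the 4 same-day arrays on the horizontal axis and the remaining 2 arrays on the vertical axis. Shading gives the number of probes per bin on a log scale and the red points are genes described in the text. The cloud is far taller than wide (SD 0.80 against 0.20), *Ciart*, *As3mt*, *Cyp17a1* and *Zfp36* lie at the upper right, and *Scd1*, *Lcn2* and *Egr1* have opposite signs on the 2 axes.

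Both 24-hour arrays of the shared day carry narrow curved streaks of low log ratios, found by a search over neighbouring spots. They cover 233 probes of replicate 1, in rows 66 to 78 and columns 122 to 214 of the slide, and 139 probes of replicate 2, in rows 1 to 68 and columns 28 to 63. Within the streaks the log ratio was lower than on the other same-day arrays by a median of -1.47 and -1.94. The reference channel was brighter there by 2.38 and 2.20 and the sample channel by 0.89 and 0.23, and the scanner software had marked 8 and 39 of these spots as outliers. By the same search, 0 spots were found on the 2 same-day arrays of 12 hours. The arrays of the other day were not searched. Of the 372 probes in a streak 352 were tested, and genes below that lie in one are named as such.

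**Figure D2:**
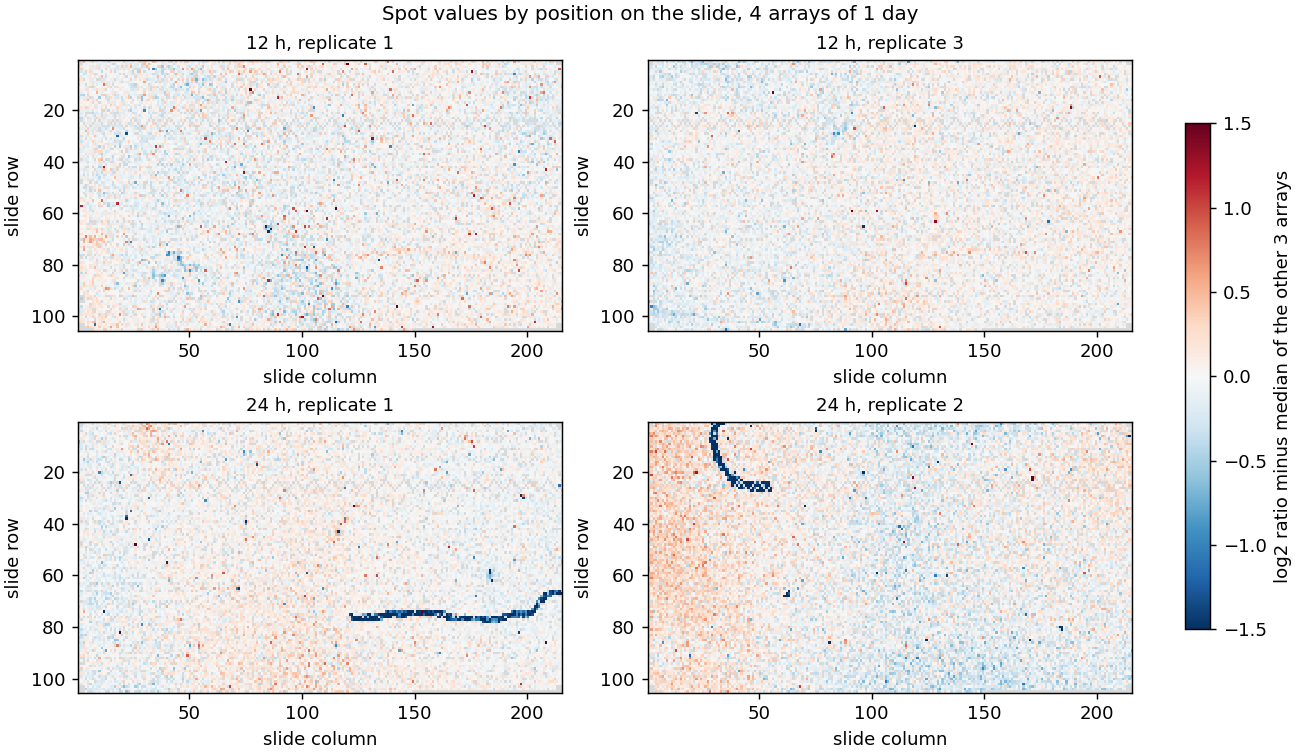
Log2 ratio of each probe minus the median of the other 3 same-day arrays, drawn at the position of its spot on the slide (105 rows and 215 columns), for the 4 arrays of the shared day. Blue is lower and red is higher, and the scale ends at 1.5. Dark blue streaks of 233 and 139 spots cross the 2 arrays of 24 hours, and a broad left-to-right gradient is visible on replicate 2 of 24 hours.

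No probe passed in the direct comparison of 24 with 12 hours. In limma, with all 12 arrays in the fit, 0 of 19040 probes (0.00%) reached a Benjamini-Hochberg adjusted p of 0.05 together with a change of at least 1.4-fold, and the smallest adjusted p was 0.994. An unadjusted p under 0.05 was met by 177 probes (0.930%), 90 higher and 87 lower at 24 hours. With only the 6 arrays compared in the fit, 14 probes met it. The 72-hour arrays shared a quantification day, whereas both groups compared span different days. The shared spread, and each SE and p from it, can therefore be too small for this contrast. Whatever their p, 635 probes (3.34%) were at least 1.4-fold higher and 975 (5.12%) at least 1.4-fold lower. These counts were 2397 and 2359 without replicate 1 of 12 hours, 2384 and 2436 without replicate 3 of 12 hours, and 2108 and 1932 without replicate 3 of 24 hours. Between the same-day arrays they were 109 (0.573%) and 408 (2.14%) of 19036, and with the streak spots set to missing 115 (0.604%) and 150 (0.788%). Without both arrays of the other day 0 probes passed and 692 had an unadjusted p under 0.05, and a block for the day gave 0 and 1472. The genes that follow are therefore described by their values. They are the 10 highest and 10 lowest ranked by p in the fit of all arrays, and the same with the day as a block. The second ranking took only genes with the same direction on both days. Members of gene lists are added, and a few that were picked after their values had been seen.

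Among the 660 genes with 6 values and a difference of at least 1.4-fold, the smallest p belonged to *Ciart*, which encodes a repressor that acts on the CLOCK and BMAL1 activators of the circadian clock. Its log2 ratio was -1.02, -1.68 and -0.91 on the arrays of 12 hours and -0.05, 0.32 and -0.13 on those of 24 hours. The groups do not overlap, and the 24-hour arrays lie near the level of the fed reference. The mean was -1.20 ± 0.41 (SD, n = 3) and 0.05 ± 0.24 (SD, n = 3), a difference of 1.25 (SE 0.26) or 2.38-fold, with an unadjusted p of 6.33e-04 and an adjusted p of 0.994 in limma. The same-day difference was 1.10 and the other-day difference 1.54. Between the same-day arrays the sample channel of *Ciart* was higher by 1.34 and the reference channel by 0.24.

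The promoters of *Ciart*, of *As3mt*, which ranked first with the day as a block, and of *Plin2*, which differed by nearly the same amount on both days, follow from RefSeq (build GRCm38.p6, 250 bases before to 50 after the annotated start, written along the strand of the gene). Capitals mark the E-box CACGTG, the site that CLOCK and BMAL1 bind. *Ciart* lies on the minus strand at chr3:95882179-95882478, *As3mt* on the plus strand at chr19:46707208-46707507 and *Plin2* on the minus strand at chr4:86670010-86670309.
Ciart: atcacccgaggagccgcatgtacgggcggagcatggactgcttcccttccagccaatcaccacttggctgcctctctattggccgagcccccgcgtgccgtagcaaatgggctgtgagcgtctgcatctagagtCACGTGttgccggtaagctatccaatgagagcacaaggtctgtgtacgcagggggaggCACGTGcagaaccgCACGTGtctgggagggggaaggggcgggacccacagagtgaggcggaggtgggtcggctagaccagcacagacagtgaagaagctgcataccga
As3mt: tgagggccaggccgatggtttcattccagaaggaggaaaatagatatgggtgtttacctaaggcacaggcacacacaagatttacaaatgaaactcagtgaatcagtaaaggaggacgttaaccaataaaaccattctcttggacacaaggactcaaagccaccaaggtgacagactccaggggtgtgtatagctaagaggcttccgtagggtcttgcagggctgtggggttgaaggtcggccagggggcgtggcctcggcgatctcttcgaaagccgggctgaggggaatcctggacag
Plin2: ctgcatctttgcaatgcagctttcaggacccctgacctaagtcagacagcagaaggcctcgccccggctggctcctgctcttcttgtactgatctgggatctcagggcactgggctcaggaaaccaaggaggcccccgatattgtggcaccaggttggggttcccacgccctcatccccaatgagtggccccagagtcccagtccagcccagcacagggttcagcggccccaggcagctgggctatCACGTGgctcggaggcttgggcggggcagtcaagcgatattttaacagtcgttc
The *Ciart* promoter holds 3 E-boxes, which begin at positions -116, -58 and -44 from the start, that of *Plin2* holds 1 and that of *As3mt* none. Among 32851 promoters of this length in the table, 7.15% hold at least 1 E-box and 0.0883% hold 3 or more. The D-box TTATGTAA, the cAMP response element TGACGTCA and the PPAR response element of the DR1 type, searched on both strands, are in none of the 3 windows, and 0.938%, 1.79% and 0.0396% of all promoters hold them. Of the 13 tested clock genes with a promoter in the table, 3 hold an E-box. The 3 printed promoters were picked from the ranked genes, and E-boxes were not counted over the rest of these. Whether an E-box bears on any difference was not tested.

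Of 26 genes of the circadian clock and its outputs, 15 were tested, and 0 passed. At an unadjusted p under 0.05 in limma there were 2, *Ciart* and *Usp2*, both higher at 24 hours. *Usp2*, a deubiquitinating enzyme whose transcript cycles in liver, had -1.12 and -0.75 on replicates 1 and 3 of 12 hours, no value on replicate 2, and -0.08, 0.60 and 0.04 at 24 hours. All 3 arrays of 24 hours lie above the 2 of 12 hours, and the difference was 1.12 (SE 0.31, adjusted p = 0.994). *Bhlhe40*, a clock repressor that was picked for its same-day difference of 0.61, had -0.67, -0.82 and -0.66 against -0.44, 0.34 and -1.29, where the groups overlap. The core clock genes *Arntl* (encoding BMAL1), *Clock*, *Npas2*, *Per3*, *Cry1* and *Cry2* had same-day differences of -0.28, -0.16, 0.05, -0.03, 0.10 and 0.14. Over the list, 9 genes were higher and 6 lower, with a median of 0.09 beside 0.04 over all 8689 genes tested, and the same-day median was 0.00 for both. These medians lie close to those of all genes, and on the shared day 3 members, *Usp2*, *Ciart* and *Bhlhe40*, were at least 1.4-fold higher and 0 lower. Of all 8688 genes with a same-day difference, 72 were at least 1.4-fold higher and 221 lower. As *Ciart* was named for its p and *Bhlhe40* for this difference, nothing is read from the count.

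**Figure D3:**
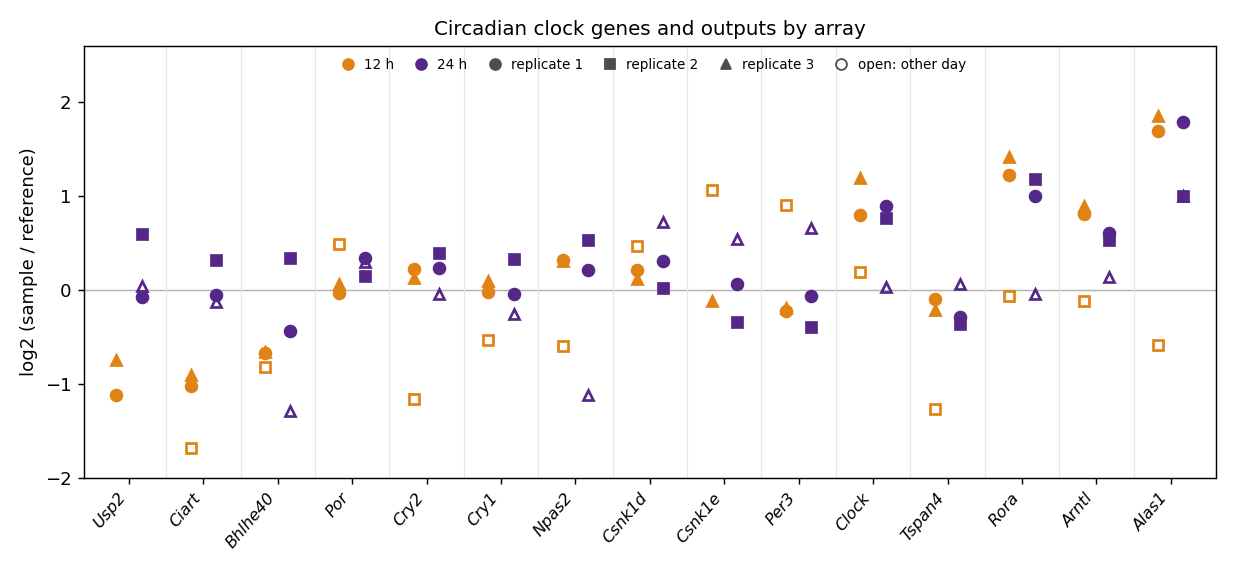
Log2 ratio of sample over reference for the 15 tested clock genes on each array of 12 hours (orange) and 24 hours (purple), ordered by same-day difference. Symbols mark the replicates and open symbols the arrays of the other day. *Usp2* and *Ciart* are the genes at the left, with every 24-hour value above every 12-hour value (*Usp2* has no value on replicate 2 of 12 hours), and *Bhlhe40*, with its 2 same-day arrays of 24 hours above 12 hours, comes next.

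Of the 35 genes ranked highest by p in either fit, 18 were higher and 17 lower at 24 hours, and 5 were in both rankings. For 16 of them all arrays of 24 hours lay on 1 side of all arrays of 12 hours. Among all 17515 probes with 6 values this held for 2.28% upward and 1.08% downward, but as the genes were ranked by this contrast nothing is read from their count. Levels of *Cyp17a1*, which encodes the steroid 17α-hydroxylase, were 0.08, -0.40 and 0.43 at 12 hours and 1.06, 1.29 and 0.17 at 24 hours. The array of the other day at 24 hours lies inside the range of the 12-hour group, and the difference was 0.80 (SE 0.30, adjusted p = 0.994), with 0.92 on the shared day and 0.57 on the other. Between the same-day arrays the sample channel of *Cyp17a1* differed by 0.62 and its reference channel by -0.30. *As3mt*, the arsenite methyltransferase, had 1.17, -0.88 and 1.17 against 1.91, 2.05 and 0.55. It was higher at 24 hours on both days, by 0.81 and 1.43, while the groups overlap across days. *Cyp17a1* and *As3mt* are neighbours in the mouse genome, with 2 annotated genes between them.

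Other genes of varied function, with smaller same-day differences, were also higher at 24 hours on both days. For *Hmgn2*, *Abhd4* and *Aprt* this was a condition of the ranking with the day as a block. Nothing is read from that agreement, here or for other genes of that ranking. *Hmgn2*, a nucleosome-binding protein, had 0.02, -1.85 and -0.44 against 0.30, 0.81 and -0.98, with day differences of 0.76 and 0.87. For *Abhd4*, a lipase that acts on N-acyl phospholipids, the values were -0.52, -1.09 and 0.06 against 0.40, 0.47 and -0.28, and the day differences 0.67 and 0.81. Its same-day sample channel differed by 0.11 and its reference channel by -0.56, against 0.86 and 0.10 for *Hmgn2*. *Aprt*, which salvages adenine, had 0.66, -0.49 and 0.27 against 0.78, 1.06 and 0.38. Its same-day difference was 0.46, with 0.55 in the sample and 0.09 in the reference channel. Groups that did not overlap were found for *Hivep1* (same-day difference 0.47), *Aup1* (0.41), *Sulf2* (0.32), *Pkp4* (0.32), *Xpo5* (0.30), *Nmrk1* (0.23), *Ern1* (0.20), *Prpf38b* (0.20) and *Pknox1* (0.13). In the same order, their same-day sample channels differed by 0.04, 0.15, 0.15, 0.08, -0.03, 0.15, 0.21, -0.10 and -0.14. The reference channels differed by -0.44, -0.26, -0.17, -0.24, -0.34, -0.08, 0.01, -0.31 and -0.28. *Ern1* encodes the stress sensor IRE1 of the endoplasmic reticulum and *Nmrk1* a kinase that makes NAD precursors. For *Ern1*, *Pknox1* and *Adamts4* the only other tested probe had the opposite sign over all arrays and the same sign on the shared day. *Spred2*, *Nfic* and *Adamts4*, whose groups overlap, differed mostly on the other day, by 1.13, 1.04 and 1.58, against 0.34, 0.21 and 0.11 on the shared day. Their same-day sample channels differed by -0.07, 0.15 and -0.01 and their reference channels by -0.41, -0.06 and -0.11. *Spred2* was well above background on 2 of 3 arrays at 12 hours.

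Of the 17 lower genes *Fabp5*, which encodes a fatty-acid binding protein, had the largest same-day difference. Its values were 0.31, -1.59 and -0.01 at 12 hours and -1.28, -1.52 and -1.83 at 24 hours. Replicate 2 of 12 hours lies within the 24-hour group, so that the difference was -1.11 (SE 0.42, adjusted p = 0.994), but -1.55 or 2.93-fold on the shared day. Between the same-day arrays its sample channel differed by -1.19 and its reference channel by 0.36. *Plin2*, the coat protein of lipid droplets and a PPARα target, had 2.76, 1.21 and 1.99 against 1.61, 1.61 and 0.47. Its difference was -0.77 on the shared day and -0.74 on the other, but on the shared day the sample channel differed by -0.10 and the reference channel, which carries the same RNA on every array, by 0.67.

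*Apoa1*, the main protein of high-density lipoprotein, had 1.27, 0.75 and 0.44 against 0.21, 0.08 and 0.54, with a difference of -0.54 (SE 0.21, adjusted p = 0.994). It was lower on both days, but the same-day sample channel differed by 0.04 and the reference channel by 0.75, and in the sample channel alone over all arrays the difference was 0.01. *Bhmt*, which transfers a methyl group from betaine to homocysteine, had 2.28, 1.44 and 2.28 against 1.91, 1.69 and 0.07. On the shared day its sample channel differed by 0.03 and its reference channel by 0.51. For *Bhlhb9* the values were 0.79, 0.89 and 0.37 against 0.04, 0.30 and -0.10. The groups of *Bhlhb9* do not overlap. *Parp4*, *Fga* (a fibrinogen chain), *Lrch2* and *Ms4a6b* did not overlap either, with same-day differences of -0.28, -0.18, -0.36 and -0.19, well below those of the other day (-1.31, -1.65, -1.83 and -1.34). *Lrch2* was well above background on 1 of 3 arrays at 24 hours, and *Fga* and *Poglut2* on 2 of 3. *Poglut2* had -2.64 on replicate 3 of 24 hours, where it was dimmest, and 0.12 and -1.04 on the others. Between the same-day arrays the sample channel differed by 0.40 for *Poglut2* and 0.11 for *Lrch2*, and the reference channel by 1.08 and 0.47.

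The other 7 of the 17 lower genes, *Septin10*, *Pcmtd1*, *Tmod1*, *Slc25a11*, *Usp31*, *Adgrg2* and *Vav3*, each have their spot in a streak. *Septin10*, for example, had -1.36 on replicate 1 of 24 hours, where the streak passes, and -0.03 and -0.42 on replicates 2 and 3. *Slc25a11*, the oxoglutarate carrier of mitochondria, had -1.64 on replicate 2, in the streak, and 0.72 and 0.17 on replicates 1 and 3, against 1.25, 1.91 and 0.62 at 12 hours. With the streak spots set to missing the difference of *Vav3* was 0.05. Of the 18 higher genes 0 have a spot in a streak.

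**Figure D4:**
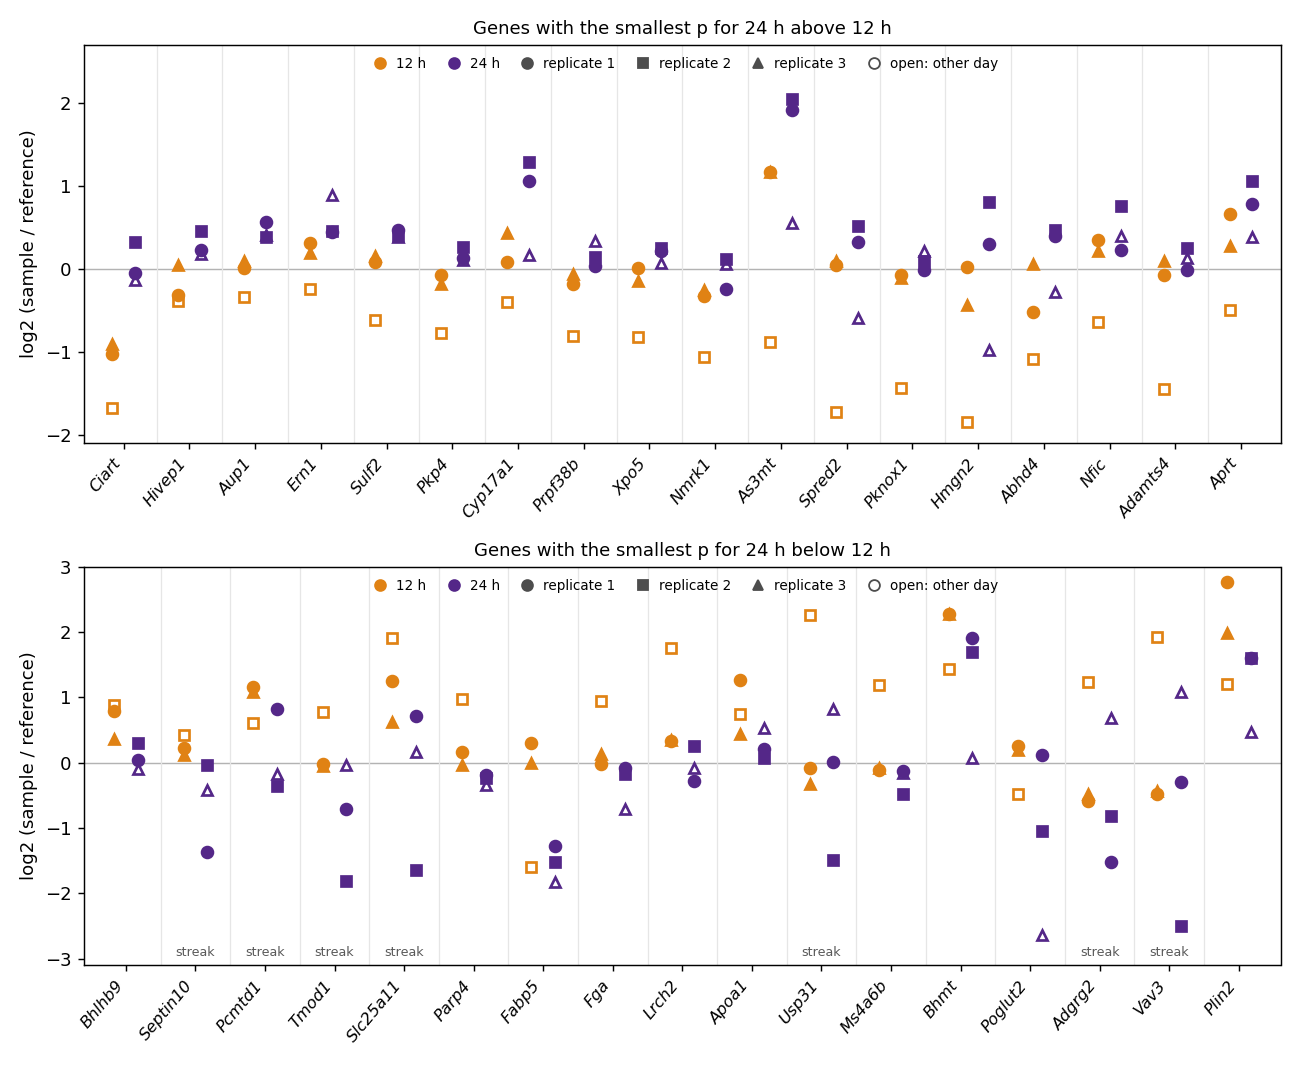
Log2 ratio of sample over reference on each array for the 18 genes that were higher (upper panel) and the 17 that were lower (lower panel) at 24 hours, ordered by rank. Orange is 12 hours, purple is 24 hours, symbols mark replicates, and open symbols are the arrays of the other day. *Ciart* is separated by a wide gap, *Fabp5* has 1 array of 12 hours (open square) among those of 24 hours, and the word streak marks the 7 genes with a spot in a streak.

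Probes passed when the arrays were weighted by how closely they followed the fit. In limma with array weights, replicate 2 of 12 hours received a weight of 0.0356 and replicate 3 of 24 hours 0.0959, against 0.568 to 3.32 for the 4 same-day arrays. This fit called 172 probes (0.903%), 14 higher and 158 lower. Of the lower ones 147 had a spot in a streak, and of the higher ones 0. When the streak spots were set to missing, an alternative added after the data had been seen, 1 probe (0.00525%) passed, *Fabp5*, which was lower by -1.49 (adjusted p = 0.0286 in limma). With each array centred locally on the slide as well, 0 probes passed and the smallest adjusted p was 0.0598. The adjusted p of *Fabp5* was 0.0280 with the streak spots in place and 0.994 in the fit without weights. Of the 25 called probes outside the streaks 24 no longer passed, although their differences hardly moved. *Ciart* had 0.98 in both fits with an adjusted p of 0.0471 and 0.209, *Cyp17a1* 0.84 and 0.85 (0.0287 and 0.119), *As3mt* 0.74 and 0.75 (0.0431 and 0.209), *Lcn2* 1.02 in both (0.0440 and 0.209) and *Scd1* -1.01 in both (0.0431 and 0.209). Their unadjusted p became smaller, as for *Ciart* with 4.23e-04 and 2.96e-04.

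Genes of fatty-acid oxidation were split between both directions. Of 20 tested, 10 were higher and 10 lower, 0 passed, and the median was 0.00 over all arrays and -0.05 on the shared day. *Acadm*, the medium-chain acyl-CoA dehydrogenase, had a same-day difference of 0.50, and *Acsl1*, which activates long-chain fatty acids, of -0.84, made up of -0.24 in the sample and 0.60 in the reference channel. *Acsl1* had 1.81, -0.39 and 1.69 against 0.92, 0.90 and -0.48. Among 17 peroxisomal genes 11 were lower, with a median of -0.09. *Ehhadh*, the bifunctional enzyme of peroxisomal β-oxidation, had 3.02, 0.59 and 2.39 against 1.45, 2.02 and 0.03 and was lower on both days, by -0.97 and -0.56. *Crot*, which passes shortened fatty acids on to carnitine, was lower by -1.09 on the shared day, with 1.39, -1.03 and 0.90 against -0.12, 0.22 and -1.30. Its same-day sample channel differed by -0.44 and its reference channel by 0.66. For *Acsl1*, *Ehhadh* and *Crot* 24 hours lay below 12 hours on both days, while across days the groups overlap. The other-day difference of *Acsl1* was only -0.09. *Acadm* was higher on both days, by 0.95 on the other.

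Of 11 PPARα targets 8 were lower and 3 higher, with a median of -0.11. The list medians of the arrays were 1.23, 1.19 and 1.11 at 12 hours and 0.88, 0.85 and 0.47 at 24 hours, which do not overlap. Of 36 lists it was the only one whose array medians did not overlap. With 3 arrays a group such a separation is easily met by chance among so many lists, so nothing is read from it. The same-day median of the gene differences was -0.08, with 4 higher and 7 lower. *Plin2* had the largest difference of the list, while *Cd36*, a fatty-acid transporter, had -0.40 over all arrays and -0.03 on the shared day. *Apoa4*, an apolipoprotein of triglyceride-rich particles, went the other way on the shared day, with 3.96 and 2.61 against 3.91 and 4.01, and had 2.48 and 1.39 on the other day. Of 6 genes of ketone-body synthesis and use 4 were higher and 2 lower with a median of 0.07, but on the shared day 1 was higher and 5 lower, with a median of -0.10.

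For *Scd1* the days opposed each other. This gene, which encodes the stearoyl-CoA desaturase, had -0.38 and 0.21 at 12 hours and -1.16 and -1.25 at 24 hours on the shared day, a same-day difference of -1.12, but -2.85 against -0.56 on the other day, a difference of 2.30. Across all arrays its difference was 0.02 (SE 0.61), and it was below 0 under loess (-0.34) and median centring (-0.08). Of 16 genes of fatty-acid synthesis 11 were lower on the shared day (median -0.13) and 5 of the 14 with a value on the other day, where 4783 of 8125 genes of all kinds were higher. Of 22 genes of cholesterol synthesis and uptake 11 were lower on the shared day, among them *Cyp51* (-0.59) and *Fdps* (-0.56). The sample channel of *Fdps* differed by 0.41 there and its reference channel by 0.97. The tricarboxylic-acid cycle had 17 of 23 genes higher with a median of 0.10, and 13 of 23 with 0.04 on the shared day.

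Amino-acid catabolism was among the lists with more genes above than below on the shared day, 15 of 22, with a median of 0.13, beside 52.4% of all probes. *Gldc*, the decarboxylase of the glycine cleavage system, had 0.92 and 1.00 at 12 hours and 1.48 and 1.85 at 24 hours there, and *Gpt2*, an alanine aminotransferase, 0.28 and 0.43 against 0.65 and 1.44. On the other day both were lower, by -0.73 and -0.35. Of 9 genes of the urea cycle and ammonia handling 6 were higher over all arrays. On the shared day 4 were higher and 5 lower, with a median of 0.00, and on the other day 4 were higher, with -0.21. *Ass1*, the argininosuccinate synthetase, had 2.08, 0.77 and 2.03 against 1.75, 1.15 and 0.53, lower on both days but 0.14 higher under median centring. On the shared day its sample channel differed by 0.13 and its reference channel by 0.73. *Prodh*, the proline dehydrogenase, had 1.33, 0.66 and 1.14 against 1.51, 2.06 and 0.34. Of 17 genes of sulphur amino-acid metabolism 12 were lower on the shared day with a median of -0.10, with *Gclc*, of glutathione synthesis, at -0.69 (sample channel -0.11, reference channel 0.57).

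Targets of glucocorticoids and fasting hormones had the largest positive median of the lists with at least 10 tested genes, 0.34 over all arrays, with 12 of 18 genes higher. At least 1.4-fold were 7 higher and 3 lower, beside 389 and 396 of all 8689 genes. On the shared day 13 of 18 were higher but the median was 0.10. *Cebpd*, a transcription factor induced by glucocorticoids and cytokines, had 0.49, -1.69 and 0.63 against 1.48, 0.90 and 0.22, higher on both days by 0.63 and 1.90. *Foxo1*, which drives gluconeogenic genes when insulin is low, had 0.41, -1.33 and 0.38 against 0.79, 0.53 and 0.34, with day differences of 0.26 and 1.68. Outside this list, the immediate-early gene *Zfp36*, which encodes an RNA-binding protein that destabilizes cytokine mRNA, had 0.36, -0.45 and 0.17 against 1.26, 0.96 and -0.16 and was higher on both days by 0.85 and 0.29. *Pck1*, the key enzyme of gluconeogenesis, did not stand out, with 1.17 and 1.46 on 2 arrays of 12 hours and 1.48, 1.35 and 0.54 at 24 hours. *Lcn2*, an acute-phase protein on the list, had -0.32, 0.00 and -0.40 against 0.70, 0.72 and -0.49. The same-day arrays of 24 hours lie above all of 12 hours and the array of the other day lies below them.

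Metallothioneins, which bind zinc and are induced by glucocorticoids, stayed far above the fed reference at both times. *Mt1* had 2.79 and 2.85 at 12 hours, with no value on replicate 1, and 2.78, 1.90 and 2.15 at 24 hours, a difference of -0.55 (SE 0.24, adjusted p = 0.994). *Mt2* had 4.05, 3.12 and 3.59 against 3.82, 3.20 and 2.41. The groups overlap for *Mt2*, while for *Mt1* 2.78 lies just below 2.79, and with median centring alone both were higher at 24 hours, by 0.61 (*Mt1*) and 0.09 (*Mt2*). *Egr1*, an immediate-early transcription factor, varied more between arrays of a group than between groups, with 3.29, 3.97 and 1.13 against 2.59, 2.58 and 0.28.

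Genes of heat-shock proteins and the endoplasmic reticulum were higher in 38 of 47 cases with a median of 0.17, but in 25 of 47 with a median of 0.05 on the shared day. The small heat-shock protein gene *Hspb1* had 1.01 and 0.84 at 12 hours and was higher on both 24-hour arrays there, with a difference of 0.65, against -0.44 on the other day. Cytosolic ribosomal proteins were lower in 47 of 56 cases on the shared day, with a median of -0.25, and higher in 39 of 45 on the other day, with 0.38. The list medians of the shared day were 0.89 and 0.36 for replicates 1 and 3 of 12 hours and 0.51 and 0.35 for replicates 1 and 2 of 24 hours, so that replicate 1 of 12 hours stood above the other 3. Electron-transport genes had 31 of 46 lower on the shared day, 35 of 41 higher on the other, and list medians of 0.77 and 0.38 against 0.53 and 0.36. The plot of list medians by array shows the arrays of the other day to the left of the same-day arrays for most lists.

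**Figure D5:**
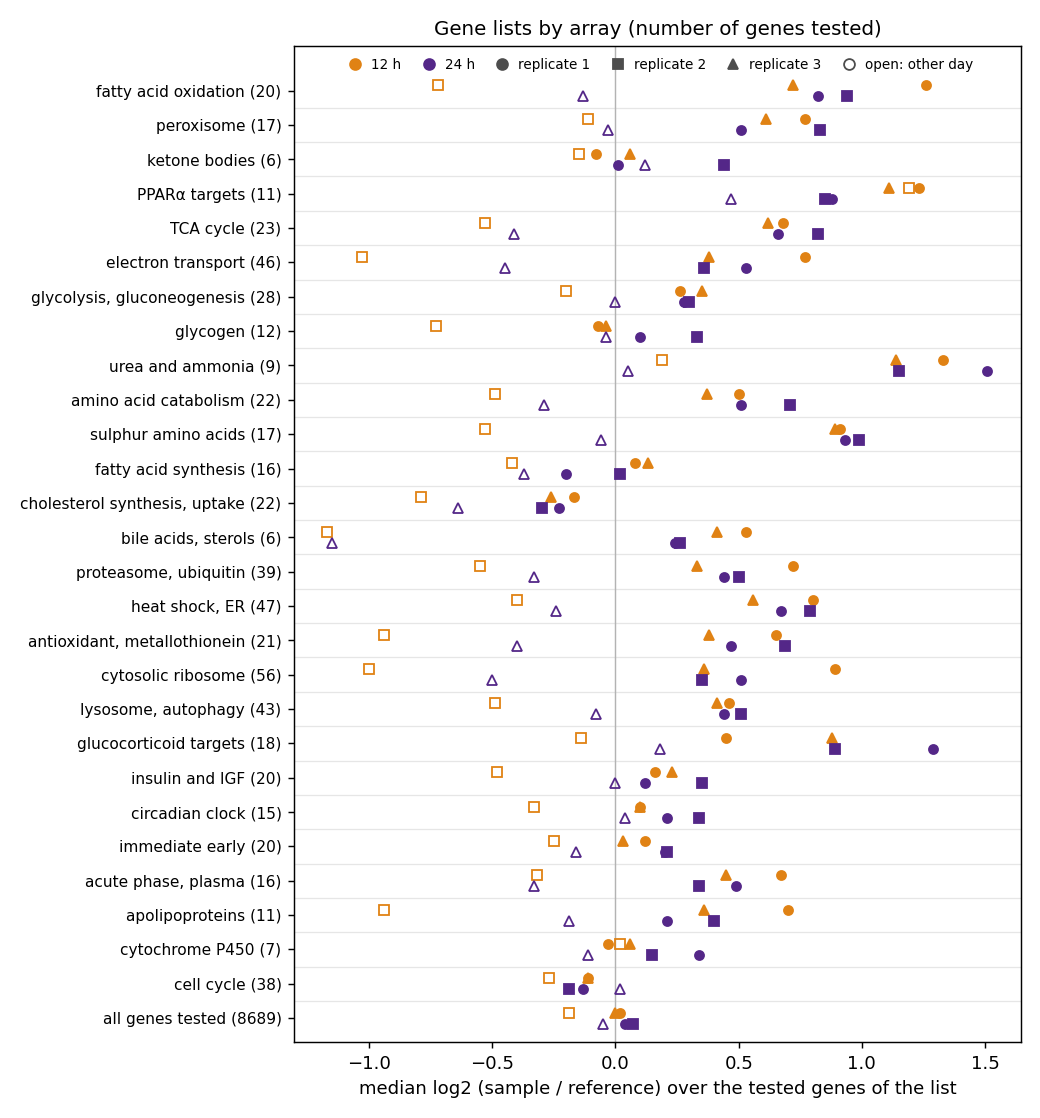
Median log2 ratio of sample over reference over the tested genes of each list on each array, 12 hours in orange and 24 hours in purple, with the number of genes in brackets. Symbols mark replicates and open symbols the arrays of the other day. For PPARα targets every array of 24 hours lies left of every array of 12 hours. In the other lists both open symbols lie left of the filled ones, except for ketone bodies, glycogen, cytochrome P450 and cell cycle.

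Plasma proteins were lower more often than higher, 11 of 16, with a median of -0.18. *Ambp*, which encodes α1-microglobulin and bikunin, had 3.01 and 1.85 on 2 arrays of 12 hours and 1.37, 0.84 and 0.15 at 24 hours, a difference of -1.65 (SE 0.48, adjusted p = 0.994). That difference was -0.71 with outlier spots kept and -0.05 in the sample channel alone. *Cyp7b1*, an oxysterol hydroxylase, likewise had no value on replicate 2 of 12 hours, and had 1.48 and 1.49 on the others against 0.94 and 0.47 on the same-day arrays of 24 hours, with a same-day difference of -0.78, while its other tested probe had the opposite sign. Its difference was -1.48 (SE 0.59), but -0.66 with outlier spots kept. For both genes the spot on replicate 2 of 12 hours had been marked as an outlier, and the separation of the groups rests on leaving it out. *Socs2*, a feedback inhibitor of growth-hormone signalling, had 1.22, 1.45 and 1.27 against 1.06, 0.65 and 0.03, a difference of -0.73 (SE 0.32). *Ppp1r3c*, which targets protein phosphatase 1 to glycogen, had 0.71, -1.18 and 0.59 against 1.23, 1.01 and 0.34 and was higher on both days, by 0.47 and 1.52. *Ebp*, a sterol isomerase of cholesterol synthesis, had 2.35, 2.32 and 1.20 against 1.26, 1.18 and 0.63, with same-day sample and reference channels that differed by 0.18 and 0.74.

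The remaining lists held 0 called genes as well, and their medians lay near that of all genes. Glycogen metabolism had 10 of 12 genes higher (median 0.14), glycolysis and gluconeogenesis 19 of 28 (0.07), antioxidants with metallothioneins 13 of 21 (0.11), the proteasome and ubiquitin list 23 of 39 (0.09), lysosome and autophagy 25 of 43 (0.04) and the cell cycle 20 of 38 (0.06). On the shared day the genes that were higher numbered 9 among antioxidants (median -0.02), 19 in the proteasome list (-0.04) and 16 in the cell cycle (-0.02). Insulin and IGF signalling had 10 of 20 higher (0.03), immediate-early genes 10 of 20 (-0.02), apolipoproteins and lipid transport 6 of 11 (0.09), cytochromes P450 3 of 7 (-0.01) and bile-acid and sterol metabolism 2 of 6 (-0.09). Over all genes tested 4924 of 8689 were higher, and over all probes 52.9%.

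The study compared each time point with fed liver by analyses of variance, so the direct contrast of 24 with 12 hours is no check of its calls. A list of genes that the study discusses for 24 hours and not for 12 hours, which the study chose on these samples and which is therefore no independent evidence, held 35 tested genes. Of these 0 passed, 22 were higher and 13 lower at 24 than at 12 hours, and the median was 0.09. On the shared day 24 were higher, with a median of 0.15, and the genes past 1.4-fold were *Hspb1* (0.65), higher, and *Sod1* (-0.73), a superoxide dismutase, lower. For *Sod1* the sample channel differed by 0.18 and the reference channel by 0.91. A list discussed for both times held 18 tested genes, with 13 lower and a median of -0.12. Differences in the first list lay between -0.98 (*Egr1*) and 0.58 (*Dnaja1*), and those of the second between -0.63 (*Cpt2*) and 0.32 (*Got1*). *Cpt2* had no value on replicate 2 of 12 hours, and its same-day difference was -0.24.

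Tissue composition was read from markers. Of 14 hepatocyte markers 5 had a probe, *Ttr*, *Apoa1*, *Cyp2e1*, *Trf* and *Tdo2*, and all 5 were above background, while their summed level, in normalized units of the sample channel, was 143859 to 176385 at 12 hours and 150505 to 163554 at 24 hours. Their log ratios were all lower at 24 hours, with a median of -0.22 and 2 past 1.4-fold, and 4 of 5 were lower on the shared day. Leukocyte and macrophage markers (17 genes, 14211 to 19646 and 16874 to 19327), endothelial and stellate markers (12 genes, 10282 to 11381 and 10758 to 12517) and cholangiocyte markers (3 genes, 1358 to 1568 and 1256 to 1453) had overlapping ranges as well, and so did intestine and adipose markers (3 genes, 3060 to 3389 and 2335 to 3087) and the single erythroid one (540 to 1051 and 479 to 952). In bulk RNA, fewer cells of a type and less RNA per cell cannot be told apart. The pancreatic acinar gene *Cpa1*, the only one of its list with a probe, had 1.57, -0.59 and 0.24 at 12 hours and -0.36, -0.74 and 0.03 at 24 hours. It was highest on replicate 1 of 12 hours, the array that was also highest for ribosomal proteins, and its part in those differences was not tested. Its summed level was 497 to 1813 at 12 hours and 238 to 644 at 24 hours.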

How the data were processed

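Median spot and background intensities of 12 two-colour Agilent arrays were used as deposited by the authors, per the file headers quantified with Feature Extraction and not normalized. The authors' deposited value table holds log10 ratios, background-subtracted and dye-normalized by the scanner software. It equals the scanner files' log10 ratio of reference over sample with the sign turned (largest difference 4.92e-08 over 243360 values) and served as an alternative. The authors themselves used background-subtracted median signals, quantile normalization and analyses of variance, and the output of these is not used here.

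Of 21446 spots, 1075 control and 91 retired spots were left out, leaving 20280 probes, of which 11963 carry a current symbol (8931 genes, names from RefSeq GRCm38.p6). The files hold 2 versions of the probe annotation, and 273 probes on which they conflict were left unnamed. Signals were corrected with normexp (offset 50), brought to common quantiles across all 24 channels and turned into log2 ratios of sample to reference. Spots marked as outliers by the software were set to missing (2.00%, 4.28% and 0.473% of the probes on replicates 1 to 3 of 12 hours and 0.345%, 0.355% and 0.552% at 24 hours). Tested were probes whose liver signal the software called well above background on all 3 arrays of 12 or of 24 hours, with a value in both groups.

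Differences were tested with limma 3.58.1 in R 4.3.3 on all 12 arrays with 4 groups and no covariate, and adjusted by Benjamini-Hochberg over the 19040 probes. A call needed an adjusted p under 0.05 and 1.4-fold. Groups come from titles. Replicates are separate pools of 2 livers, so that an SD is between pools and the number of arrays limits the precision. The days are those of image quantification in the file headers, not of RNA extraction. Probes of a streak were those with at least 4 of the 9 spots in their neighbourhood over 0.8 away, to the same side, from the median of the other same-day arrays. The fit and the search were tried on simulated data with independent noise of the spread of the same-day arrays. No effect of the day was simulated, so nothing is read from this about the fit across days.

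A gene was represented by the probe with the highest sample signal over the 6 arrays. Named are, among genes with 6 values and 1.4-fold, the 10 higher and 10 lower with the smallest p in the fit of all arrays and in that with the day as a block where both days had the same direction, up to 4 members per list with the largest difference, metallothioneins, *Apoa4* and *Pck1*, and genes the study discusses for 24 or 12 hours. Other list members were named after their values had been seen, mostly for a same-day difference of at least 1.4-fold or a missing value on 1 array. The members, lists and rules were chosen with earlier results of these data known. Replicate numbers are shared by the groups, and the arrays were not treated as paired by them. A check of this is given among the effects of the processing. Values of some genes are not reported here.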

Additional observations from a re-analysis of the deposited data

How the results depend on the processing

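With limma, 0 probes passed under any alternative of sample over reference except array weights (172) and array weights with the streak spots missing (1). With array weights 0.903% of all probes passed. By list, 1 gene each passed in peroxisome (17 tested), fatty-acid synthesis (16), cytosolic ribosome (56), glucocorticoid targets (18), clock (15), plasma proteins (16) and cell cycle (38), and 2 among 7 cytochromes P450. Those of peroxisome, ribosome and cell cycle (*Pex19*, *Rpl36a* and *Ccna2*) and 1 of the P450 genes (*Cyp1b1*) lie in a streak. Probes with an unadjusted p under 0.05 ranged from 14 (the 6 arrays alone) to 1472 (day block, all 12 arrays), beside 177. Median centring gave 44, the sample channel alone 777, the software's log ratios 262, the 4 same-day arrays 580, and leaving out both other-day arrays 692, or 629 with the streak spots missing. The number at least 1.4-fold higher and lower was 63 and 475 under loess and 144 and 409 under median centring, beside 635 and 975. The reference channel alone, with the same RNA on every array, had 0 calls, and 13 with the day as a block. The cause was not tested for any of these.

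Directions turned for some genes. *Scd1* (0.02) was -0.34 under loess, -0.08 under median centring, -0.21 in the software's ratios, -0.10 with local centring, -1.01 with array weights, -1.06 with both and -1.12 on the same-day arrays. *Egr1* (-0.98) was 0.38 on the same-day arrays, 0.17 with array weights and 0.22 with local centring as well. *Pck1* (-0.19) was 0.19 with outlier spots kept, 0.10 with the day block or the same-day arrays, and 0.14, 0.15 and 0.07 with array weights, without streak spots, and with local centring. Without the streak spots *Vav3* was 0.05, 0.01 with local centring, 0.15 on the same-day arrays, and 0.17 and 0.12 with array weights, and *Usp31* was 0.21 on the same-day arrays and 0.20 and 0.04 with array weights. *Adamts4* became 0.00 in the last of these. The sample channel alone gave 0.01 for *Apoa1*, 0.14 for *Ass1*, 0.03 for *Rplp1* (a ribosomal protein gene) and 0.25 for *Tmod1*, and list medians of -0.12 for ketone bodies and -0.05 for the cell cycle. Median centring gave 0.14 for *Ass1*, 0.61 for *Mt1* and 0.09 for *Mt2*. The cell-cycle median was -0.07 under loess and median centring and -0.05 with local centring and array weights. On the other day alone *Apoa4* was -1.09, *Bhlhe40* -0.46, *Cpa1* 0.62, *Gldc* -0.73, *Gpt2* -0.35, *Hspb1* -0.44, *Lcn2* -0.49 and *Prodh* -0.33, and the medians were 0.72 for glycogen, -0.18 for cytochromes P450, 0.44 for the cell cycle, 0.28 for endothelial, 0.62 for acinar and 0.47 for intestine and adipose markers.

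Leaving out each array in turn gave 0 called probes each time. The differences ranged from -0.36 to 0.94 for *Apoa4*, -0.15 to 0.67 for *Bhlhe40*, -0.15 to 0.79 for *Gldc*, -0.03 to 0.70 for *Gpt2*, -0.16 to 1.01 for *Hspb1*, -0.37 to 0.10 for *Pck1*, -0.12 to 0.74 for *Prodh*, -0.90 to 0.63 for *Scd1* and -1.74 to 0.05 for *Vav3*. List medians ranged from -0.32 to -0.08 for PPARα targets, -0.33 to 0.18 for cholesterol synthesis, -0.43 to 0.07 for cytochromes P450 and -0.08 to 0.11 for endothelial markers.

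The deviations of same-numbered arrays correlated with r = 0.60, -0.53 and -0.61 for numbers 1, 2 and 3. Between 12-hour and 24-hour arrays that shared the day r lay between 0.47 and 0.67, and between the others from -0.68 to -0.53. As these signs follow the day, the check cannot show whether the numbers pair the arrays. With the replicate number as a block 0 probes passed and 176 had an unadjusted p under 0.05. The alternatives without the streak spots, including those with local centring, were chosen after seeing the data. The sample signal, 3.50 to 8.28 times the local background in the median, limits the dimmer probes.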
